A study of Mus musculus with 14 samples.

Results

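Fap, Postn, Pdgfra and Thy1, genes of fibroblasts and their activated state, and Acta2, Tagln, Cnn1 and Myh11, genes of the smooth muscle contractile apparatus, were followed across 14 bulk RNA libraries of mouse 4T1 mammary tumours. The 8 genes were taken by symbol from the 54532 genes of the deposited tables, each symbol matching 1 gene, and all 8 passed the filter on low counts that left 15360 genes for testing. 4T1 is a mouse mammary carcinoma line used as a model of triple-negative breast cancer. Each mouse received 1000000 4T1 cells under the skin at the mammary gland, and dosing began after 9 days, at a tumour volume of about 100 mm3. There were 4 libraries from mice given the vehicle PBS, 5 from mice given cyclophosphamide (CTX), a DNA-alkylating drug, at 100 mg/kg (CTX100), and 5 from mice given it at 140 mg/kg (CTX140). PBS and CTX were given into the peritoneum in 3 cycles spaced 6 days apart, and the tumours were collected 3 days after the last of them. The strain, sex and age of the mice are not given in the labels, all tumours came from the same cell line, and nothing in the labels ties each library to its own mouse, so the p-values measure the spread between these libraries, which may be technical.

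Fibroblasts that become activated in a wound or a tumour lay down matrix, and some of them, called myofibroblasts, also assemble contractile fibres with smooth muscle actin. Platelet-derived growth factor acts on them through its receptors, and TGF-beta is a known inducer of the contractile programme. Genes of that programme are switched on by serum response factor (SRF), together with myocardin or related co-factors, at a short element called the CArG box. Vascular smooth muscle, pericytes and the myoepithelium of the mammary gland use the same contractile genes, so a bulk tumour library does not say which cell a transcript came from.

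The 250 bases before the transcription start (RefSeq, GRCm38.p6) are shown for the 4 matched genes of the 8, to set Acta2 and Cnn1, textbook SRF targets, beside Postn, a matrix gene that also rose, and Pdgfra, which did not. Capitals mark matches to the CArG box in which at most 1 of the central bases was neither A nor T. The printed strand was searched, and a match on it is also a match on the other strand. Acta2 lies at chr19:34255374-34255623 on the minus strand, Cnn1 at chr9:22099003-22099252, Postn at chr3:54360857-54361106 and Pdgfra at chr5:75152001-75152250, the last 3 on the plus strand.
Acta2: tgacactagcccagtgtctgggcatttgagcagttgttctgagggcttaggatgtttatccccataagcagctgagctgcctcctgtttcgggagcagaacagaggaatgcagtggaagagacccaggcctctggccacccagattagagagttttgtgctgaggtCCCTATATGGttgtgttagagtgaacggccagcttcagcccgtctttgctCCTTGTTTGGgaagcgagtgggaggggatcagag
Cnn1: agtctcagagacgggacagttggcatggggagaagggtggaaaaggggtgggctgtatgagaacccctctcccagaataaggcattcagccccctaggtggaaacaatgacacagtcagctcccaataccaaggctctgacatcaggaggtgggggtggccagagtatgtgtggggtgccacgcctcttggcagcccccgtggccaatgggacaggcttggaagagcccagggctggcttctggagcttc
Postn: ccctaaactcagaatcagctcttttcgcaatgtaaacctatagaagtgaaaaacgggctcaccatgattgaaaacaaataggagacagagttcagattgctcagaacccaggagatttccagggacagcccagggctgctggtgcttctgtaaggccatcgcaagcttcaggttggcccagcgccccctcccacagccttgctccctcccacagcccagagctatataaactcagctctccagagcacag
Pdgfra: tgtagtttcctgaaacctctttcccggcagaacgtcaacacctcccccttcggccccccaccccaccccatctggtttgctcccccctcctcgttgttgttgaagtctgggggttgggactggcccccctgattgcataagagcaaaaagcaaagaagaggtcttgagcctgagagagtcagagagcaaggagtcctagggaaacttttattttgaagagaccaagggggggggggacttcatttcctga
The Acta2 window held 2 such matches, CCCTATATGG beginning 84 bases and CCTTGTTTGG beginning 34 bases before the start, each with 1 central base other than A or T. Of 32851 promoter windows of the same length, 8.59% held at least 1 match and 0.67% held 2 or more. The windows of Cnn1, Postn and Pdgfra held 0, which says only that these letters are not in these windows.

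The libraries held between 14423875 and 19282726 counts. On the first principal component of all tested genes, which carried 37.8% of the variance, the library CTX140 1 lay farthest from the PBS libraries, followed by CTX140 2. T cell transcripts (15 genes without Thy1) summed to 1172 CPM in CTX140 1 and 352 CPM in CTX140 2, against 79.7 to 181 CPM in PBS, where CPM is counts per 1000000 after TMM scaling of library sizes. Skeletal muscle transcripts (16 genes) summed to 311 CPM in CTX100 3 and to 11.5 to 41.8 CPM in the other libraries. Krt8, a keratin of carcinoma cells, averaged 876 ± 105 CPM in CTX140 and 911 ± 181 CPM in PBS (SD, n = 5 and 4), so carcinoma transcripts were abundant in these tumours.

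In the CTX140 tumours 7 of the 8 genes rose against PBS, where 11.1% of all genes tested were called higher, and none of the 7 overlapped between the groups, against 7.34% of all genes with every CTX140 library above every PBS library. Contractile Acta2, Cnn1 and Myh11 rose 3.11-, 3.85- and 3.98-fold, and Fap, Thy1, Postn and Tagln rose between 2.15- and 2.62-fold. Pdgfra did not pass the test. In the CTX100 tumours none of the 8 passed the test, where 1.2% of all genes were called higher, and Acta2 came closest. In bulk tumour RNA, more cells of a type and more RNA per cell cannot be told apart. The test throughout is edgeR's quasi-likelihood test on the counts, two-sided, with Benjamini-Hochberg adjustment over the 15360 genes, and a gene is called at an adjusted p under 0.05.

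**Figure D1:**
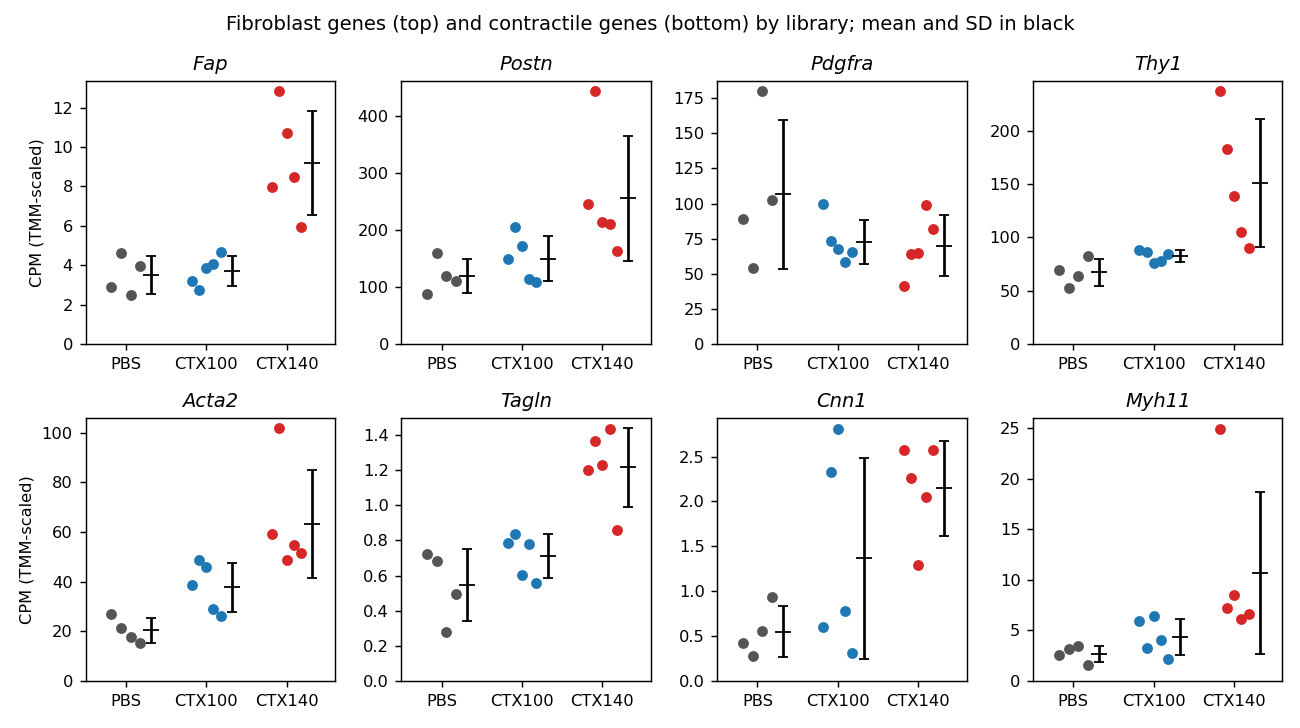
CPM of each gene (vertical axes, linear from 0) by library in PBS, CTX100 and CTX140; dots are libraries in replicate order, the black bar is the mean and the whisker the SD (n = 4, 5 and 5). Every CTX140 library lies above every PBS library for all genes shown except Pdgfra, and Myh11 in CTX140 1 (24.9 CPM) and Acta2 in CTX140 2 (102 CPM) lie well above the rest of their group.

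Fap encodes fibroblast activation protein, a membrane serine protease of activated fibroblasts (chromosome 2, 62500943 to 62574075, minus strand, mm10). It had 2.89, 4.64, 2.52 and 3.95 CPM in PBS, 3.20, 2.75, 3.86, 4.09 and 4.70 CPM in CTX100 and 7.97, 12.8, 10.7, 8.47 and 5.94 CPM in CTX140. PBS and CTX100 overlapped widely, and all CTX140 libraries lay above both. The fitted log2 fold change was 1.39 ± 0.26 (SE) for CTX140 against PBS (adjusted p = 0.00218), 0.09 ± 0.26 for CTX100 against PBS (adjusted p = 0.903) and 1.30 ± 0.24 for CTX140 against CTX100 (adjusted p = 0.0262). Fap was the only one of the 8 genes called between the CTX doses, a comparison in which 0.775% of all genes were called higher. That call rested on single libraries: the adjusted p was 0.0589 to 0.0821 on leaving out CTX100 1, 2, 3 or 4 or CTX140 2 or 3.

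Postn encodes periostin, a secreted matrix protein that binds integrins and collagen (chromosome 3, 54361109 to 54391037, plus strand). It had 87.4, 159, 119 and 111 CPM in PBS, 149.7, 205, 172, 115 and 109 CPM in CTX100 and 245, 443, 213, 211 and 163 CPM in CTX140. CTX140 2 was the highest library, and CTX140 5 lay just above the highest PBS library. Against PBS, CTX140 was higher by log2 1.10 ± 0.28 (adjusted p = 0.0119), and 0.81 without CTX140 2 (adjusted p = 0.0180). Postn reached 150.0 ± 40.1 CPM in CTX100, against 119 ± 29.8 CPM in PBS (SD, n = 5 and 4), and this difference did not pass the test (log2 0.33 ± 0.27, adjusted p = 0.553).

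Thy1 encodes a lipid-anchored surface glycoprotein that in mice is carried by T cells and neurons as well as by fibroblasts (chromosome 9, 44043384 to 44048579, plus strand). It had 69.9, 52.4, 63.7 and 82.5 CPM in PBS, 88.1, 86.1, 75.9, 77.6 and 84.4 CPM in CTX100 and 237, 183, 139, 105 and 90.5 CPM in CTX140. The log2 fold change of CTX140 was 1.17 ± 0.23 against PBS (adjusted p = 0.00281) and 0.87 ± 0.21 against CTX100 (adjusted p = 0.0515), the groups not overlapping in either case. Among the CTX140 libraries the order of Thy1 was also the order of the summed T cell transcripts, 1172, 352, 176, 124 and 113 CPM. That order was not particular to T cell genes. The summed adipocyte, blood endothelium, nerve and Schwann cell, and myoepithelial and basal genes held it too, as did the first principal component. The summed pericyte genes did not. Of the 15 T cell genes 7 were called higher and 0 lower in CTX140 against PBS, but only 2 higher without CTX140 1 or without CTX140 2 and 0 without PBS 2, 3 or 4. The most abundant T cell genes beside Thy1 were Cd8a, a co-receptor of cytotoxic T cells (1.63 ± 0.55, adjusted p = 0.0468), and Il7r, the interleukin 7 receptor (1.42 ± 0.47, adjusted p = 0.0440). The 15 T cell genes summed to 113 to 1172 CPM in CTX140 and 79.7 to 181 CPM in PBS, with no gene at 0. Without CTX140 1, Thy1 was still called, with a log2 fold change of 0.95 (adjusted p = 0.00299). The part of T cell RNA in the Thy1 values was not tested.

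**Figure D2:**
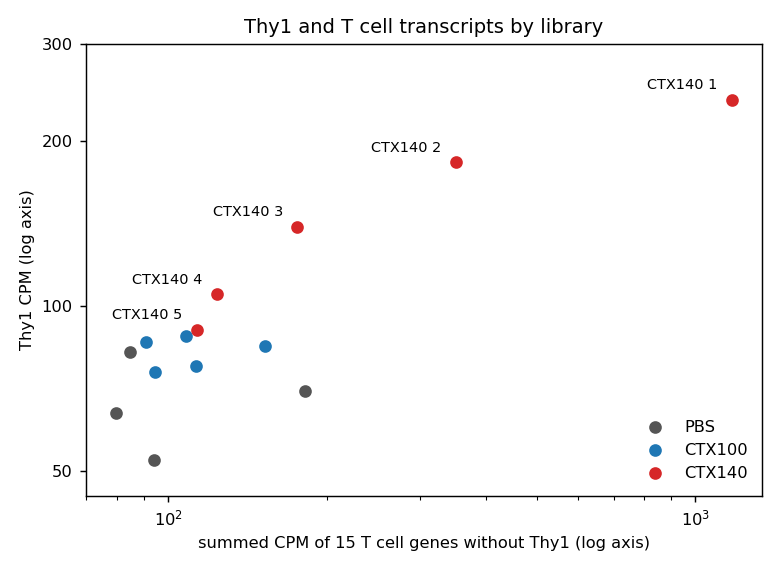
Thy1 CPM against the summed CPM of 15 T cell genes without Thy1, 1 dot per library, both axes logarithmic. CTX140 1 (237 and 1172 CPM) and CTX140 2 (183 and 352 CPM) lie far out on both axes, while CTX140 3, 4 and 5 have T cell sums inside the PBS range of 79.7 to 181 CPM and Thy1 above all PBS libraries.

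Pdgfra encodes platelet-derived growth factor receptor alpha, a general surface marker of fibroblasts (chromosome 5, 75152292 to 75198215, plus strand). It had 88.8, 54.4, 180.2 and 103 CPM in PBS, 99.5, 73.2, 67.6, 58.2 and 65.3 CPM in CTX100 and 41.1, 64.0, 64.8, 98.7 and 82.3 CPM in CTX140. All 3 groups overlapped, and the PBS libraries spread most. Fitted log2 fold changes were -0.55 ± 0.30 for CTX100 (adjusted p = 0.349) and -0.60 ± 0.30 for CTX140 (adjusted p = 0.159), each against PBS. Leaving out PBS 2, the lowest PBS library, gave -0.83 for CTX140 with an adjusted p of 0.0405. That was the only call among 19 alternative fits, which ran from -0.83 to -0.23, with adjusted p up to 0.589. Without PBS 3, the highest PBS library, the CTX100 value shrank to -0.17 (adjusted p = 0.839). As a description chosen after the values of both genes were seen, the FPKM ratio of Acta2 over Pdgfra had medians of 1.27 in PBS (0.552 to 2.22), 2.82 in CTX100 (2.18 to 3.82) and 4.24 in CTX140 (3.13 to 8.94). Postn over Pdgfra had medians of 1.19 in PBS (0.760 to 3.36), 2.27 in CTX100 (1.73 to 3.22) and 3.79 in CTX140 (2.29 to 7.97), with all groups overlapping.

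Acta2 encodes alpha smooth muscle actin, the usual mark of myofibroblasts, smooth muscle and pericytes (chromosome 19, 34241090 to 34255336, minus strand). It had 26.9, 21.4, 17.7 and 15.3 CPM in PBS, 38.6, 48.7, 45.9, 29.1 and 26.0 CPM in CTX100 and 59.1, 102, 48.8, 54.9 and 51.7 CPM in CTX140. The groups stepped up with dose: CTX100 overlapped PBS only through CTX100 5, just under PBS 1, and CTX140 lay above both groups, its lowest library only just above the highest of CTX100 (48.8 and 48.7 CPM). The log2 fold change against PBS was 1.64 ± 0.25 for CTX140 (adjusted p = 0.000578) and 0.89 ± 0.25 for CTX100 (adjusted p = 0.0753). The CTX100 value was past the threshold in DESeq2 (adjusted p = 0.0150) and when only the PBS and CTX100 libraries were fitted (adjusted p = 0.0383). CTX140 against CTX100 was 0.75 ± 0.23 with an adjusted p of 0.0829. The longest annotated transcript of Acta2 shared no exact stretch of 75 bases with another annotated gene. Stretches with mismatches were not searched, so sharing of reads with the other actins was not tested. The related smooth muscle actin Actg2, of the enteric type, rose by 1.40 ± 0.35 in CTX140 (adjusted p = 0.0105), while the cytoplasmic actins Actb (0.38 ± 0.15, adjusted p = 0.0745) and Actg1 (0.09 ± 0.13, adjusted p = 0.632) did not pass.

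Myh11 encodes the heavy chain of smooth muscle myosin, found in mature smooth muscle (chromosome 16, 14194535 to 14291372, minus strand). It had 2.59, 3.14, 3.42 and 1.59 CPM in PBS, 5.91, 3.23, 6.46, 4.03 and 2.17 CPM in CTX100 and 24.9, 7.19, 8.53, 6.15 and 6.58 CPM in CTX140. CTX140 1 stood far above the rest of its group, and the lowest CTX140 library lay below the highest CTX100 library. For CTX140 against PBS the log2 fold change was 1.99 ± 0.45 (adjusted p = 0.00640), and 1.41 without CTX140 1 (adjusted p = 0.00761). CTX100 against PBS was 0.71 ± 0.44 (adjusted p = 0.425).

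Cnn1 encodes calponin 1, an actin-binding protein of differentiated smooth muscle (chromosome 9, 22099216 to 22109630, plus strand). Its counts per library were low: PBS had 4 to 17, CTX100 had 5 to 56 and CTX140 had 21 to 48. In CPM it had 0.422, 0.273, 0.559 and 0.934 in PBS, 0.603, 2.33, 2.80, 0.779 and 0.309 in CTX100 and 2.58, 2.26, 1.29, 2.05 and 2.57 in CTX140. CTX100 split, with CTX100 2 and CTX100 3 at or above most CTX140 values and the other three among the PBS values. CTX100 3, the highest, is also the library with the high skeletal muscle transcripts, and their part in its Cnn1 value was not tested. Fitted log2 fold changes were 1.94 ± 0.57 for CTX140 (adjusted p = 0.0244) and 1.30 ± 0.57 for CTX100 (adjusted p = 0.244), each against PBS. The CTX140 call was lost without PBS 1 (1.82, adjusted p = 0.0600), PBS 2 (1.73, adjusted p = 0.0529) or PBS 3 (1.95, adjusted p = 0.0639).

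Tagln encodes transgelin, another actin-binding protein of smooth muscle and myofibroblasts (chromosome 9, 45929619 to 45936058, minus strand). It was barely detected, with 12, 10, 4 and 9 counts in PBS, 13, 14, 12, 12 and 9 counts in CTX100 and 20, 23, 20, 21 and 16 counts in CTX140. In CPM the CTX140 libraries covered 0.856 to 1.43 and the PBS libraries 0.280 to 0.723. The log2 fold change of CTX140 against PBS was 1.14 ± 0.35 (adjusted p = 0.0291), and the call was lost without PBS 3 (0.93, adjusted p = 0.0944), PBS 4 (1.08, adjusted p = 0.0845), CTX140 2 (1.10, adjusted p = 0.0533) or CTX140 4 (1.07, adjusted p = 0.0516). Of the 1988 exon bases of Tagln, 1349 (67.9%) are also exon bases of genes on the opposite strand, 1241 of the antisense gene Gm48529 and 108 of Pcsk7. Whether counting used strand is not given here. The Tagln level is therefore uncertain: reads in the shared bases could have been left uncounted or given to a neighbour. The values of the neighbours in CTX140 against PBS were 0.77 ± 0.61 for Gm48529 (adjusted p = 0.389) and 0.40 ± 0.15 for Pcsk7 (adjusted p = 0.0700). No other of the 8 genes shared more than 6.5% of its exon bases.

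Levels were compared between genes on the deposited FPKM scale, which divides by gene length. In PBS the order of mean FPKM was Thy1 (22.3 ± 4.11), Postn (13.6 ± 3.41), Acta2 (11.4 ± 2.83), Pdgfra (10.6 ± 5.33), Fap (0.616 ± 0.170), Myh11 (0.353 ± 0.107), Tagln (0.273 ± 0.102) and Cnn1 (0.199 ± 0.102), all SD with n = 4. Neighbours in this order had overlapping ranges in PBS, except Pdgfra and Fap, between which the level dropped sharply. In CTX140 Thy1 stood at 50.2 ± 19.7 FPKM, Acta2 at 35.5 ± 12.4 FPKM, Postn at 29.3 ± 12.6 FPKM and Pdgfra at 6.99 ± 2.15 FPKM (SD, n = 5), and the ranges of Acta2 and Postn overlapped. The place of Acta2 rests on its listed length of 1781 bases, while its exons in GENCODE M21 cover 2196 bases. With that length Acta2 would be at 9.23 FPKM in PBS, below Pdgfra, and at 28.8 FPKM in CTX140, below Postn, and the same factor would apply to its ratios to other genes in every group. Beside abundant Acta2, the markers of mature smooth muscle remained low: Myh11 reached 1.40 ± 1.03 FPKM and Cnn1 0.783 ± 0.191 FPKM in CTX140. The median of Myh11 over Acta2 was 0.0293 in PBS, 0.0324 in CTX100 and 0.0298 in CTX140, with overlapping ranges.

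Over all genes tested, 11.1% were called higher and 10.1% lower in CTX140 against PBS, and for 7.34% every CTX140 library lay above every PBS library. Against this background 7 of the 8 genes were called higher and 0 lower, the same 7 not overlapping. The median log2 fold change was 1.28 over the 8 genes and 0.02 over all genes. In CTX100 against PBS the background was 1.2% called higher and 0.397% called lower, and 5.17% of genes did not overlap upwards. None of the 8 was called or free of overlap (median 0.35, against -0.01 over all genes), and 2 of them, Acta2 and Cnn1, had an unadjusted p under 0.05 (0.00231 and 0.0356), as had 2748 of all genes. In CTX140 against CTX100, 0.775% were called higher and 0.475% lower, and 2.33% did not overlap upwards. Fap alone was called there, and Fap, Thy1, Acta2 and Tagln did not overlap (median 0.77, against 0.03 over all genes). The comparisons with PBS share the 4 PBS libraries, and those with CTX140 share its 5.

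**Figure D3:**
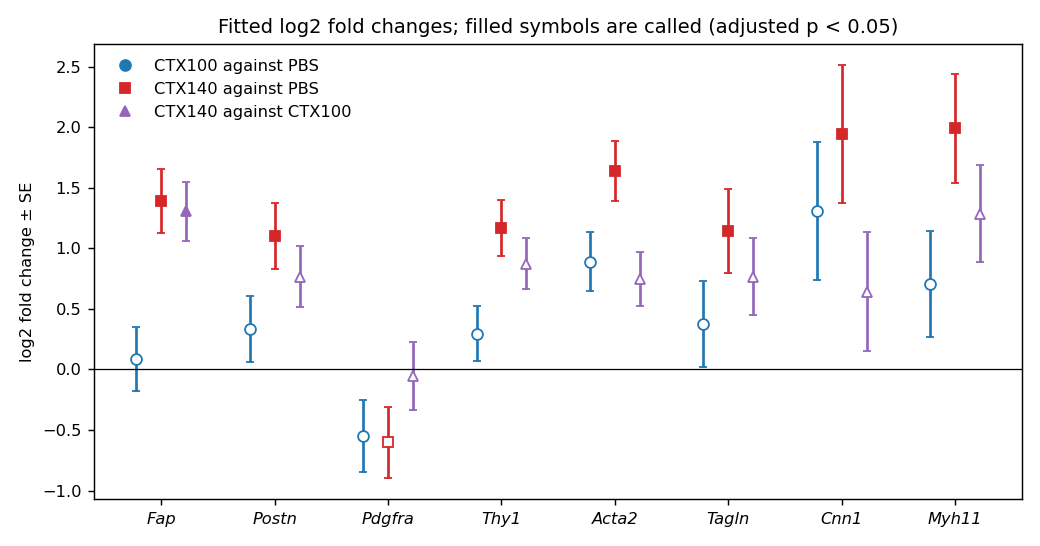
Fitted log2 fold change of each gene (vertical axis; whiskers are the SE) in CTX100 against PBS, CTX140 against PBS and CTX140 against CTX100; filled symbols have an adjusted p under 0.05. The CTX140 against PBS values of 7 genes are filled and lie between 1.10 and 1.99, Pdgfra lies at -0.60, and Fap is the only gene filled for CTX140 against CTX100.

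Among 22 other tested genes of the smooth muscle contractile apparatus, 4 were called higher and 1 lower in CTX140 against PBS, with a median log2 fold change of 0.05. The risers were Myl9, a regulatory light chain of myosin (1.91 ± 0.23, adjusted p = 0.000102), Lmod1, leiomodin 1, which nucleates actin filaments in smooth muscle (3.16 ± 0.50, adjusted p = 0.000666), Actg2 and Synpo2, an actin-associated Z-disc protein (1.77 ± 0.48, adjusted p = 0.0169). Ppp1r12b, a targeting subunit of myosin phosphatase, fell (log2 -0.63 ± 0.21, adjusted p = 0.0450), a call lost without PBS 1, 3 or 4 or CTX140 2 or 3; without PBS 2 the list had 3 called lower. The 3 most abundant genes of the list, which are expressed in many cell types, did not pass: Tpm1 (tropomyosin 1) averaged 396 ± 87.8 CPM in CTX140 and 402 ± 33.5 CPM in PBS, Flna (filamin A) 373 ± 56.4 CPM in CTX140 and 400.3 ± 67.9 CPM in PBS, and Cnn2 (calponin 2) 284 ± 18.4 CPM in CTX140 and 318 ± 19.9 CPM in PBS. In CTX100 against PBS, Myl9 was already called higher (1.49 ± 0.22, adjusted p = 0.0120) and Itga8, integrin alpha 8, lower (-1.91 ± 0.34, adjusted p = 0.0172). List genes named beyond the 3 most abundant were chosen after their values were seen.

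Of 13 tested genes around SRF, Fhl1, a LIM-domain protein, was called higher (2.63 ± 0.71, adjusted p = 0.0179) and 1 other gene was called lower in CTX140, shares close to the 11.1% and 10.1% of all genes tested, with a list median of -0.18. Srf itself averaged 44.1 ± 2.04 CPM in CTX140 and 50.1 ± 7.29 CPM in PBS (adjusted p = 0.279), and Myocd, which encodes myocardin, was too low to be tested. Without PBS 3 or PBS 4 none was called higher, and without PBS 2 there were 3 called lower.

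Of 21 genes of TGF-beta signalling and its direct targets, 3 were called higher and 8 lower in CTX140 against PBS. Those lower were the ligand Tgfb3 (-1.35 ± 0.22, adjusted p = 0.000784), the receptor Tgfbr1, the signal transducers Smad3 (-0.88 ± 0.17, adjusted p = 0.00239) and Smad4, the feedback inhibitor Skil, the latent TGF-beta binding proteins Ltbp1 (-1.05 ± 0.19, adjusted p = 0.00155) and Ltbp2, and Itgav, an integrin subunit that takes part in activating latent TGF-beta. Those higher were the targets Ccn2, a matricellular protein (0.85 ± 0.28, adjusted p = 0.0390), and Nox4, an oxidase (1.56 ± 0.46, adjusted p = 0.0254), and the decoy receptor Bambi (1.06 ± 0.34, adjusted p = 0.0373). These counts varied with single libraries: 4 were lower without PBS 3 and 5 without PBS 4, and 0 were higher without PBS 4 or CTX140 2 and 1 without PBS 3 or CTX140 3. The main ligand Tgfb1 averaged 92.1 ± 24.3 CPM in CTX140 and 99.6 ± 20.7 CPM in PBS and was not called (adjusted p = 0.714). Thbs1, thrombospondin 1, the most abundant gene of the list, did not pass the test (0.01 ± 0.28, adjusted p = 0.992). Only Tgfb3 was called in CTX100, also lower (-0.94 ± 0.22, adjusted p = 0.0417).

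Of the other 6 genes of the PDGF family, Pdgfc (2.05 ± 0.54, adjusted p = 0.0156), Pdgfd (2.12 ± 0.50, adjusted p = 0.00812) and the receptor-like gene Pdgfrl (1.92 ± 0.40, adjusted p = 0.00366) rose in CTX140. PDGF-C and PDGF-D are ligands that need proteolytic activation. The more abundant ligands Pdgfa (-0.37 ± 0.22, adjusted p = 0.243) and Pdgfb (0.11 ± 0.19, adjusted p = 0.711) did not pass. The other receptor gene, Pdgfrb, averaged 32.8 ± 7.73 CPM in CTX140 and 33.0 ± 8.30 CPM in PBS (-0.01 ± 0.18, adjusted p = 0.979).

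Broad fibroblast genes rose with the activation genes. Of 19 tested genes of a general fibroblast list 11 were called higher and 1 lower in CTX140 (median 1.75), among them Col3a1 (1634 ± 717 CPM in CTX140 and 279.6 ± 76.0 CPM in PBS) and Sparc (0.61 ± 0.21, adjusted p = 0.0499), while Fn1, fibronectin, the most abundant, fell to 1888 ± 385 CPM in CTX140, against 3661 ± 1707 CPM in PBS (adjusted p = 0.0162). Of 19 genes associated with myofibroblastic cancer-associated fibroblasts (CAFs) 10 were higher and 3 lower (median 1.00), the 3 being Fn1, Ltbp2 and the metalloprotease gene Mmp11; without PBS 3 the counts were 6 higher and 1 lower, and Fn1 was then not called. Of 20 genes associated with inflammatory CAFs 17 were higher and 0 lower (median 1.79), including the complement genes C3 (1.75 ± 0.30, adjusted p = 0.00124) and C4b (1.29 ± 0.31, adjusted p = 0.00978) and the chemokine Ccl2 (1.30 ± 0.19, adjusted p = 0.000382). The counts in CTX100 against PBS were 2, 2 and 6 higher and 0 lower for these 3 lists, where 1.2% of all genes were called higher. Those higher counts were unstable. They ran from 0 to 3, 1 to 3 and 0 to 7 on leaving out 1 library. Over the other alternative fits they ran from 0 to 9, 0 to 5 and 0 to 12. Macrophages and adipocytes also express some genes of the inflammatory list.

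Markers of several other cell types were also called higher in the CTX140 libraries. Of 12 pericyte genes 4 were called higher in CTX140 against PBS (2 without CTX140 1 or 2 or PBS 2, 3 or 4), with summed levels of 146 to 322 CPM in CTX140 and 129 to 236 CPM in PBS. Rgs5, a defining pericyte gene, averaged 51.4 ± 26.8 CPM in CTX140 and 34.8 ± 26.8 CPM in PBS (adjusted p = 0.430). Anpep, a membrane aminopeptidase, rose (1.12 ± 0.36, adjusted p = 0.0419), and Mcam, an adhesion molecule, did not pass (-0.12 ± 0.12, adjusted p = 0.521). Of 9 tested myoepithelial and basal genes 7 were called higher (5 without CTX140 1), and the summed level of the list was 38.2 to 84.5 CPM in CTX140 and 15.3 to 22.7 CPM in PBS, with Dsg3 at 0 in PBS. Krt14, a defining keratin of that layer, averaged 7.61 ± 3.65 CPM in CTX140 and 0.720 ± 0.482 CPM in PBS (3.41 ± 0.66, adjusted p = 0.00291). Egfr, the most abundant of that list, rose by 1.38 ± 0.24 (adjusted p = 0.00128), and the Notch ligand Jag2 did not pass (0.29 ± 0.24, adjusted p = 0.395). Of 10 adipocyte genes 8 were called higher, the list summing to 130.1 to 688 CPM in CTX140 and 23.7 to 73.8 CPM in PBS, with Cidea at 0 in PBS. Fabp4, a fatty acid carrier (2.42 ± 0.55, adjusted p = 0.00835), and Car3, a carbonic anhydrase (5.27 ± 0.96, adjusted p = 0.00255), rose, and Lipe, a lipase, did not pass (0.37 ± 0.26, adjusted p = 0.323). Of 7 nerve and Schwann cell genes 4 were called higher (37.8 to 80.6 CPM in CTX140, 30.4 to 33.6 CPM in PBS, Gfra3 at 0 in PBS), and of 11 carcinoma epithelium genes 6 (1262 to 1963 CPM in CTX140, 1450 to 2268 CPM in PBS, none at 0). The sodium channel gene Scn7a (3.54 ± 0.44, adjusted p = 0.000137) and the adhesion gene Ncam1 (1.79 ± 0.39, adjusted p = 0.00547) of the nerve list rose, and Mbp, myelin basic protein, did not pass (0.02 ± 0.23, adjusted p = 0.962). Of the carcinoma list, the abundant keratins Krt8 (-0.06 ± 0.14, adjusted p = 0.796), Krt18 (-0.17 ± 0.16, adjusted p = 0.488) and Krt7 (0.63 ± 0.33, adjusted p = 0.191) did not pass. The 6 carcinoma genes called higher were all less abundant than these keratins. Esrp1 (4.14 ± 0.98), Epcam (3.85 ± 0.79) and Krt19 (3.57 ± 0.68) rose most. Grhl2 (3.21 ± 0.85), Cldn7 (2.18 ± 0.58) and Cdh1 (1.37 ± 0.38) rose less. The carcinoma count ran from 4 to 7 on leaving out 1 library and from 3 to 6 over the other alternative fits. Blood endothelium had 1 of 13 called higher (166 to 496 CPM in CTX140, 123 to 282 CPM in PBS, none at 0), with a median log2 fold change of 0.71. That count was unstable, at 0 to 3 on leaving out 1 library and 0 to 8 over the other alternative fits. Skeletal muscle had 0 of 7 (19.3 to 30.2 CPM in CTX140, 11.5 to 33.3 CPM in PBS, Tnnc2 at 0 in both and Myh2 at 0 in PBS). The most abundant genes of these 2 lists did not pass: the endothelial genes Plvap (1.08 ± 0.44, adjusted p = 0.0939), Flt1 (-0.06 ± 0.16, adjusted p = 0.808) and Pecam1 (1.18 ± 0.54, adjusted p = 0.133), and the muscle genes Tnni2 (-0.04 ± 0.44, adjusted p = 0.961), Acta1 (-0.61 ± 1.82, adjusted p = 0.838) and Tnnt3 (0.82 ± 0.51, adjusted p = 0.270). The part of these cells in the values of the 8 genes was not tested.

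**Figure D4:**
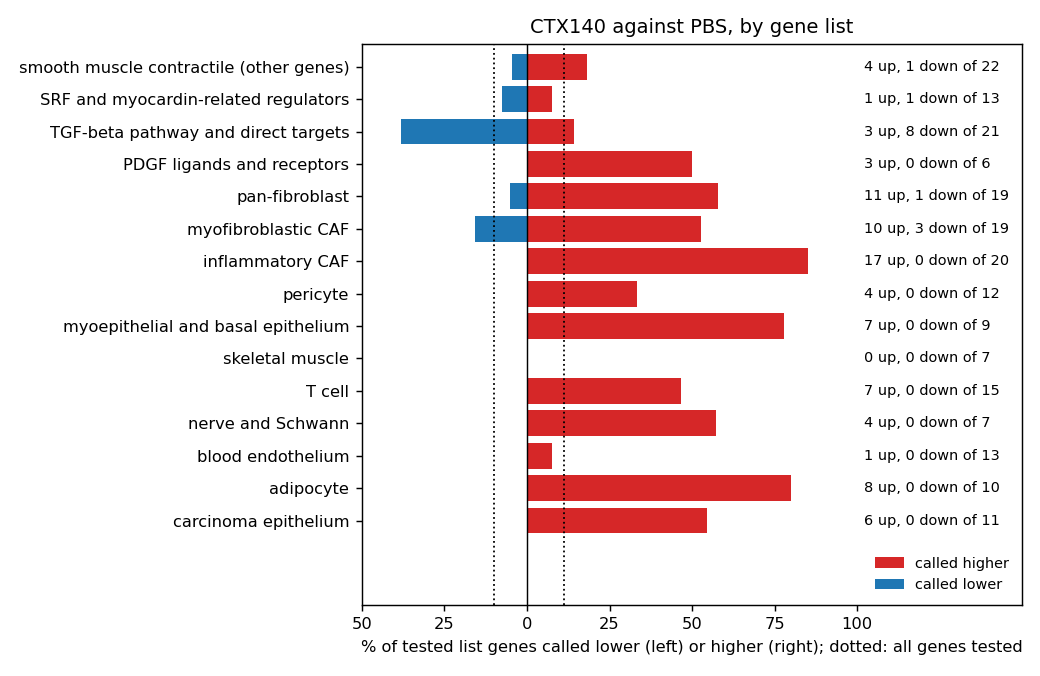
Share of the tested genes of each list called higher (right) or lower (left) in CTX140 against PBS, with the counts beside the bars; dotted lines mark the shares over all genes tested, 11.1% higher and 10.1% lower. Inflammatory CAF, adipocyte and myoepithelial genes show the largest shares higher among these lists, and TGF-beta genes the largest share lower.

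The 8 genes did not move as a block from library to library within a group. Over the 14 libraries, the log2 CPM deviations from the group means had a median Pearson r of 0.17 over the 28 pairs of genes, with 1 pair above 0.5 and 10 below 0. The highest was Postn with Acta2, r = 0.71 and Spearman rho = 0.64, and r = 0.53 over the 12 libraries left without the pair farthest out in Postn. The lowest was Fap with Pdgfra, r = -0.51 and rho = -0.48, and r = -0.54 over 12 libraries on leaving out the pair farthest out in Fap. These are descriptions over libraries that share depth and composition within each group. Pairs with Tagln or Cnn1 rest on 4 to 56 counts per library, where counting noise can pull r towards 0.

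**Figure D5:**
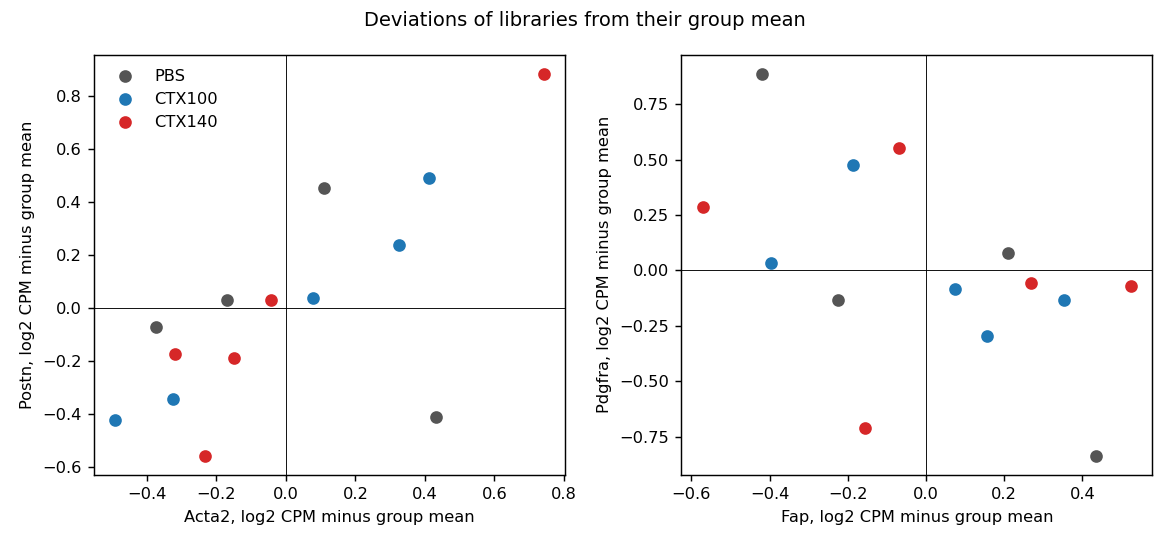
Deviation of each library's log2 CPM from its group mean, Postn against Acta2 (left) and Pdgfra against Fap (right), 1 dot per library, coloured by group. Postn and Acta2 were highest together in CTX140 2, and Pdgfra tends to be high where Fap is low (r = 0.71 and r = -0.51 over 14 libraries).

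By the same measure, over 14 libraries and all genes tested, the 3 genes nearest to Fap were Gm46209 (r = 0.89), Dcn, which encodes the matrix proteoglycan decorin (r = 0.89), and Alg13 (r = 0.84). Nearest to Postn were Egfr, the epidermal growth factor receptor (r = 0.91), Inpp5j (0.89) and B3galnt1 (0.85). Nearest to Pdgfra were Scara5, a ferritin receptor (r = 0.94), Igf2r (0.93) and Atp2a2, a calcium pump (0.93), and nearest to Thy1 were Zmynd15 (0.96), Kcnk6 (0.96) and Tacc1 (0.95). Among the contractile genes, Acta2 had Cyfip1 (r = 0.92), Yif1b (0.92) and Ppp1ca (0.90), and Myh11 had Gfra2 (0.92), Vmac (0.91) and Ddit4 (0.90). Tagln had Otud3 (r = 0.96) and Ube2o (0.90) as its nearest pair, and Cnn1 had Prkci (0.84), Insig1 (0.84) and AC125351.1 (0.84). No gene of the 8 was among the nearest 3 of another. These r are the highest among all genes tested over only 14 libraries, and such a choice yields high r by chance alone. Whether any of them exceeded chance was not tested, and the low counts of Tagln and Cnn1 are a further limit. By Spearman's rho the nearest 3 kept 2 genes for Fap, Tagln and Cnn1, 1 for Postn, Pdgfra, Acta2 and Myh11 and 0 for Thy1, whose nearest 3 were then H2-Eb1 (rho = 0.99), H2-DMa (0.97) and H2-Ea-ps (0.97), genes and a pseudogene of the MHC class II region.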

How the data were processed

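Total RNA of tumours was sequenced as 14 libraries on an Illumina platform, per the labels' protocols. The authors deposited raw read counts per gene, as whole numbers, and FPKM values. Each deposited FPKM value equalled the gene's count over its length and over 1 constant per library. Per the submitters' processing notes the build was mm10, and DESeq2 is listed. Aligner, counter and use of strand: not given in the sources used here.

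Counts were tested with edgeR 4.0.16 in R 4.3.3: TMM factors, filterByExpr by group, and a robust quasi-likelihood fit of all 14 libraries by group, without covariates. CPM uses TMM-scaled library sizes; log2 CPM for deviations has a prior count of 2. DESeq2 1.42.0 and limma 3.58.1 on log2(FPKM + 1) and log2(FPKM + 0.1) were alternatives.

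Exon overlap and shared 75-base stretches used GENCODE M21. Promoters came from RefSeq, which matched Postn (2 starts, the one nearer the listed gene start shown), Pdgfra, Acta2 and Cnn1.

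The genes and lists were chosen with earlier results of these data known. By rule, all 8 genes, the 3 genes of highest mean CPM in each list and the 3 genes nearest by Pearson's r to each of the 8 are named, apart from 4 that are not reported here. Counts of reads without molecular identifiers are not counts of independent molecules.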

Additional observations from a re-analysis of the deposited data

Results flagged for a closer look

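In 24 groups of libraries examined (8 genes in 3 groups), the highest library stood apart from the rest in 2, and chance sets apart about 1 in 20 such groups. Acta2 had 101.8 CPM in CTX140 2, with the next CTX140 library at 59.1 CPM, a gap of 0.805 of the group's range. Myh11 had 24.86 CPM in CTX140 1, with the next at 8.53 CPM, a gap of 0.873 of the range. CTX140 2 was also the highest library for Postn and Fap, and CTX140 1 for Thy1 and the T cell transcripts. Without these libraries the log2 fold changes of CTX140 against PBS were 1.40 for Acta2 (edgeR adjusted p = 0.000690) and 1.41 for Myh11 (adjusted p = 0.00761).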

How the results depend on the processing

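The 464 alternative fits of the 8 genes' fold changes reversed no called direction. Of the 8 genes, 0 were called in CTX100 against PBS, and 1 (Acta2) with DESeq2, with only the groups compared or with the replicate block. In CTX140 against PBS 7 were called, 4 at an adjusted p under 0.01, and 5 to 7 on leaving out 1 library (without PBS 2 the 7 include Pdgfra, called lower, and not Cnn1). In CTX140 against CTX100 1 was called, 2 with upper quartile factors, 5 with DESeq2, 0 at an adjusted p under 0.01, 3 with the replicate block, and 0 to 3 on leaving out 1 library. Tagln also lost its CTX140 call with no filter (adjusted p = 0.132) and with only the groups compared (adjusted p = 0.0752). Over all genes, the counts of 245, 3268 and 192 called became 847 (CTX100 against PBS) and 1284 (CTX140 against CTX100) with DESeq2, 529 (CTX100) and 1878 (CTX140) with only the groups compared, 148 (CTX100) with limma on log2(FPKM + 1), 1, 1289 and 0 at an adjusted p under 0.01, 293 (CTX140 against CTX100) with the replicate block, and 17 to 686, 1975 to 3894 and 0 to 1007 on leaving out 1 library. The labels do not say whether equal replicate numbers tie libraries together, and the values do not settle it. Of 13 same-numbered pairs, 6 had correlated deviations above 0.1 (r from -0.19 to 0.43). Of 14 libraries, 3 correlated best with their own number in both other groups. The first principal component fell steadily with the replicate number in PBS and CTX140, but not in CTX100. The cause of the shifts in the counts called was not tested. With GENCODE exon lengths, an alternative chosen after seeing the data, 6 of the 8 genes kept their place in the FPKM order of each group. Tagln and Cnn1 had 4 to 56 counts per library.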
